A study of Mus musculus with 12 samples.

Results

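The 34 genes described here encode enzymes of mitochondrial and peroxisomal fatty acid oxidation, the carnitine shuttle that feeds them, a factor of peroxisome division and a pair of transcriptional regulators. They were taken by symbol from a table of 56748 mouse genes, and each symbol matched 1 row. By the site of the protein, 16 were treated as mitochondrial, 12 as peroxisomal, 4 (Acsl1, Crat, Eci2 and Ech1) as present in both organelles and 2 (Ppara and Ppargc1a) as regulators. No expression value entered this choice, although earlier results from the same kidneys were known when it was made. The libraries came from kidneys of male mice aged 8 to 12 weeks, with 3 libraries in each of 4 groups. In the cKO IR group Krt20, a keratin gene, was deleted in proximal tubular cells and both renal pedicles were clamped for 30 min, with tissue taken 24 h after reflow. WT IR kidneys had the same clamping in wild-type mice. In cKO sham and WT sham kidneys the same genotypes had surgery with no clamp. The promoter that drives the recombinase was not named in the sources used here, nor whether each library was 1 animal, so the p-values speak only of the spread from library to library, which may be technical.

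Each library held 13187531 to 15962303 reads assigned to genes, and the values are FPKM, fragments scaled to gene length and to library size. The targeted gene Krt20 averaged 36.9 ± 9.47 FPKM in cKO IR kidneys and 69.6 ± 12.7 FPKM in WT IR kidneys, against 0.0114 ± 0.0198 FPKM in cKO sham and 0.065 ± 0.0816 FPKM in WT sham kidneys (SD, n = 3 each). Krt20 RNA was thus present in the cKO IR libraries, and whole kidney cannot show in which cells. The extraction text mentions another organ, the retina, but 9 photoreceptor and other retina genes summed to at most 0.596 FPKM in any library, while 20 proximal tubule markers summed to 8313 FPKM or more. Library 2 of WT IR stood apart from its group: its 8 tubular injury markers summed to 6398 FPKM, against 11210 and 11000 FPKM in WT IR libraries 1 and 3, and calls of members that were gained or lost without it are given below.

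Beta-oxidation shortens fatty acids by repeated dehydrogenation, hydration, a second dehydrogenation and thiolytic cleavage. Mitochondria carry it out on chains imported as carnitine esters, while peroxisomes begin the breakdown of very long, branched and dicarboxylic chains and pass shortened products on through carnitine and CoA esters. The proximal tubule is rich in both organelles and draws most of its energy from fatty acids, and PPAR alpha (Ppara) with its coactivator PGC-1 alpha (Ppargc1a) is a known activator of many of these genes.

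PPAR alpha binds with RXR to paired copies of AGGTCA, so RefSeq promoter windows of build GRCm38.p6, from 250 bases before to 50 bases after each start site, were searched on both strands. Of the 34 genes, 30 had a window, and these genes had 32 windows. The pair AGGTCANAGGTCA was in 0 of them, and in 0.025% of the 11861 windows of genes tested here. The longer form TCAAGGTCA, known for estrogen-related receptors, was also in 0, against 0.253% for tested genes. Both exact strings are so rare that finding 0 in 32 windows cannot set the members apart from other genes. Inexact copies and sites outside the windows were not searched. A single AGGTCA, which lies within both longer motifs, was in 6 windows (18.8%), against 13.0% of the windows of tested genes and 16.3% of all 32851 windows. The windows upstream of the start site that hold it are shown because they are the upstream matches among the members, and the capitals mark AGGTCA or its reverse complement TGACCT in the 5′ to 3′ direction of the gene.
Cpt1a: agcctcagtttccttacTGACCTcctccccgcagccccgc
Acadm: gTGACCTtcgggctccggtgacac
Acadvl: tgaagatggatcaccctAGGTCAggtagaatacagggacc
Scp2: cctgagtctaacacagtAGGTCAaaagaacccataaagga
Acot4: ggctcagccccgaagcaTGACCTttggccg
These stretches lie at chr19:3323190-3323229 on the plus strand for Cpt1a, chr3:153944870-153944893 on the minus strand for Acadm, chr11:70015493-70015532 on the minus strand for Acadvl, chr4:108118634-108118673 on the minus strand for Scp2 and chr12:84038349-84038378 on the plus strand for Acot4. The Acadm stretch begins at the edge of its window. The motif ends 8 bases before the start site in Acot4 and begins 109 bases before it in Scp2. In the Phyh window, not shown, it begins 37 bases after the start site. A match says only that the letters are there. The GC box GGGCGG was in 68.8% of the members' windows and 62.3% of those of tested genes, CCAAT in 40.6% and 36.9%, and TATAAA in 3.13% and 7.37%.

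A large part of the set was lower after ischemia and reperfusion in both genotypes. Of the 34 genes, 13 fell and 1 rose in cKO IR against cKO sham kidneys, and 24 fell and none rose in WT IR against WT sham kidneys. A gene was called where the adjusted p-value was under 0.05 in a limma model of log2(FPKM + 1) over all 12 libraries, adjusted by the Benjamini-Hochberg method over 12868 tested genes (those averaging 1 FPKM or more across libraries), and all 34 members were tested. Among all tested genes 23.1% fell and 27.8% rose in cKO IR kidneys, and 19.5% fell and 22.6% rose in WT IR kidneys. The median log2 difference of the members was −0.28 in cKO IR and −0.60 in WT IR kidneys, beside 0.02 and 0.01 over all tested genes. Thus the members fell more often than the tested genes as a whole in both genotypes, and rose less often. The cKO count depended on single libraries: 9 of the 34 fell without cKO IR library 2 or without cKO sham library 1, and 14 without cKO IR library 1. The 13 genes that fell in cKO IR kidneys had all fallen in WT IR kidneys too, another 11 were called in WT IR kidneys alone, and 10 fell in neither.

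The decline was not even across the WT IR libraries. The median of the 34 genes, relative to the mean of WT sham kidneys, was −0.75, −0.29 and −0.82 in WT IR libraries 1, 2 and 3, while cKO IR libraries were at −0.37, −0.64 and −0.48. WT IR library 2 was thus the least changed of the 6 IR libraries in these genes as well as in injury markers. Without it, 27 of the 34 genes fell in WT IR kidneys, and without WT IR library 1 or 3 there were 18. Proximal tubule markers were also lower: 18 of 20 fell in cKO IR kidneys and 15 of 20 in WT IR kidneys, with medians of −1.62 and −1.17. Their summed level was 10420 to 14040 FPKM in cKO IR against 22750 to 29800 FPKM in cKO sham kidneys, and 8313 to 19680 FPKM in WT IR against 28730 to 31440 FPKM in WT sham kidneys, with the 19680 in WT IR library 2. In whole kidney, fewer cells of a type and less RNA per cell cannot be told apart, and the part of tubule loss in the values below was not tested. A list of 7 fat markers summed to 7.42 and 9.44 FPKM in WT IR libraries 2 and 3 and to at most 0.200 FPKM elsewhere, mostly Cfd, and their part was not tested either. Markers of the thick limb and distal tubule fell in 8 of 8 in cKO IR and 7 of 8 in WT IR kidneys, with medians of −1.66 and −1.54, and 5 of 5 red blood cell genes fell in WT IR kidneys (median −1.83) and none in cKO IR kidneys (median −0.79). Of 7 collecting duct markers 5 fell in cKO IR and 3 in WT IR kidneys, with medians of −0.49 and −0.31. Of 8 tested macrophage and neutrophil markers 4 rose and 1 fell in each genotype, with medians of 0.36 in cKO and 0.74 in WT, and the part of these shifts was not tested. The marker counts stand beside 23.1% of all tested genes falling and 27.8% rising in cKO IR, and 19.5% and 22.6% in WT IR kidneys.

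**Figure D1:**
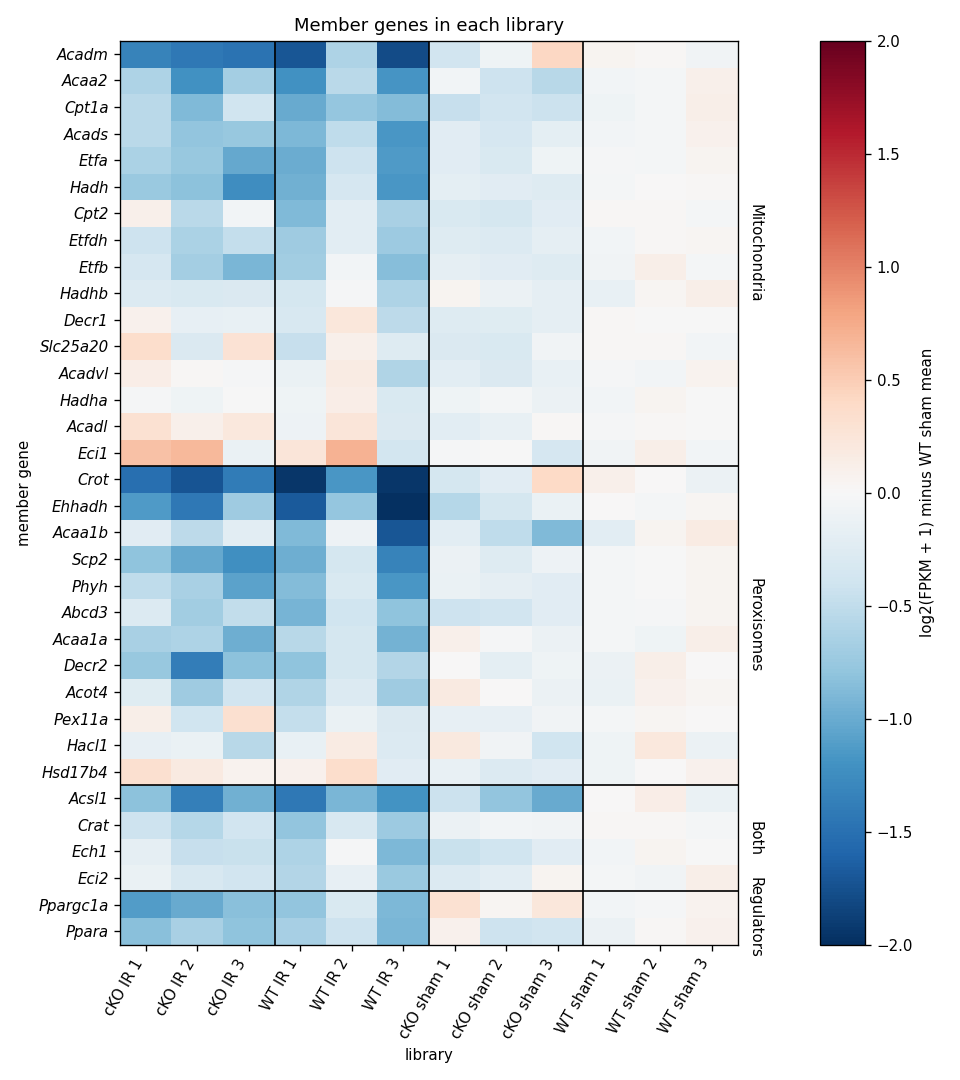
Heat map of the 34 genes (rows, by organelle) in the 12 libraries (columns), coloured by log2(FPKM + 1) minus the mean of the 3 WT sham libraries. Blue fields, below WT sham, fill most of the 6 IR columns, and WT IR 2 is the palest of its group, with a median of −0.29.

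Both regulators fell in both genotypes. Ppara encodes the fatty acid sensing nuclear receptor (chromosome 15, 85619184 to 85687020, plus strand; coordinates here and below are those of the deposited table, whose build was not established). It had 13.6, 15.7 and 13.9 FPKM in cKO IR kidneys, against 26.8, 18.6 and 19.0 FPKM in cKO sham kidneys. In wild-type mice Ppara had 15.5, 18.7 and 12.9 FPKM in WT IR kidneys, against 23.2, 25.7 and 26.7 FPKM in WT sham kidneys. No IR library reached any sham library of its genotype. The log2 differences were −0.53 ± 0.15 in cKO IR (SE; adjusted p = 0.014) and −0.66 ± 0.15 in WT IR kidneys (adjusted p = 0.00573), and the cKO call was lost without cKO sham library 1, the highest of the 12 for this gene (adjusted p = 0.0523).

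Ppargc1a, the coactivator known for driving mitochondrial biogenesis (chromosome 5, 51611592 to 51725068, minus strand), had 5.57, 6.05 and 7.01 FPKM in cKO IR kidneys, against 16.5, 13.7 and 15.7 FPKM in cKO sham kidneys. WT IR kidneys had 7.22, 10.5 and 6.65 FPKM of Ppargc1a, against 12.7, 13.1 and 13.9 FPKM in WT sham kidneys. Both IR groups lay wholly below their sham groups, and the cKO difference was the greater of the pair, at −1.18 ± 0.14 (adjusted p = 9.0e-05) beside −0.66 ± 0.14 in WT (adjusted p = 0.00406). The difference between these effects was −0.51 ± 0.20 and did not pass (adjusted p = 0.275).

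Most genes for the entry of fatty acids into oxidation had less RNA in WT IR than in WT sham kidneys. Acsl1, which activates long-chain fatty acids to CoA esters (chromosome 8, 46924074 to 46989088, plus strand), had 16.1, 10.8 and 14.6 FPKM in cKO IR kidneys, against 21.4, 16.5 and 14.0 FPKM in cKO sham kidneys. In WT IR kidneys Acsl1 had 10.2, 15.03 and 12.2 FPKM, against 29.5, 32.03 and 26.6 FPKM in WT sham kidneys. The WT groups were far apart, at −1.18 ± 0.18 (adjusted p = 0.000693), whereas the cKO groups overlapped, at −0.30 ± 0.18 (adjusted p = 0.193). Abcd3, the peroxisomal membrane transporter of acyl-CoA, fell in WT IR kidneys (−0.71, adjusted p = 0.00254) and was at −0.15 in cKO IR kidneys (adjusted p = 0.406).

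Of the 5 genes of the carnitine shuttle, 2 fell in cKO IR and 4 in WT IR kidneys, beside 23.1% and 19.5% of all tested genes. Cpt1a, the malonyl-CoA sensitive entry enzyme of mitochondria (chromosome 19, 3372334 to 3435733, plus strand), had 72.2, 56.3 and 79.6 FPKM in cKO IR kidneys, against 76.4, 80.6 and 78.0 FPKM in cKO sham kidneys. WT IR kidneys had 51.7, 61.1 and 57.3 FPKM of Cpt1a, against 99.4, 103 and 114 FPKM in WT sham kidneys. The cKO groups overlapped, at −0.19 ± 0.12 (adjusted p = 0.22), and the WT groups did not, at −0.88 ± 0.12 (adjusted p = 0.000355). Crot, which makes carnitine esters of the shortened chains that leave peroxisomes (chromosome 5, 9016033 to 9047324, minus strand), fell most of all members in both genotypes. It had 42.7, 36.7 and 46.3 FPKM in cKO IR kidneys, against 96.1, 105 and 163 FPKM in cKO sham kidneys. In WT IR kidneys Crot had 31.5, 54.7 and 31.1 FPKM, against 133, 125 and 113 FPKM in WT sham kidneys. Every IR library was below every sham library, with log2 differences of −1.48 ± 0.23 in cKO (adjusted p = 0.00046) and −1.68 ± 0.23 in WT (adjusted p = 0.000393). Cpt2, the inner membrane partner of Cpt1a, fell in WT IR kidneys only by a narrow margin (−0.58, adjusted p = 0.023), and this call was lost in each of 5 fits that left out WT IR library 1 or 3 or any 1 of the WT sham libraries (adjusted p = 0.0508 to 0.0929). Crat, which buffers acetyl-CoA as acetylcarnitine, fell in both genotypes, at −0.37 in cKO (adjusted p = 0.0165, and 0.0628 without cKO IR library 2) and −0.61 in WT (adjusted p = 0.0017). The carnitine carrier Slc25a20 was at 0.33 in cKO and −0.21 in WT kidneys, neither called, but was called higher in cKO without cKO IR library 2 (0.54, adjusted p = 0.0136).

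**Figure D2:**
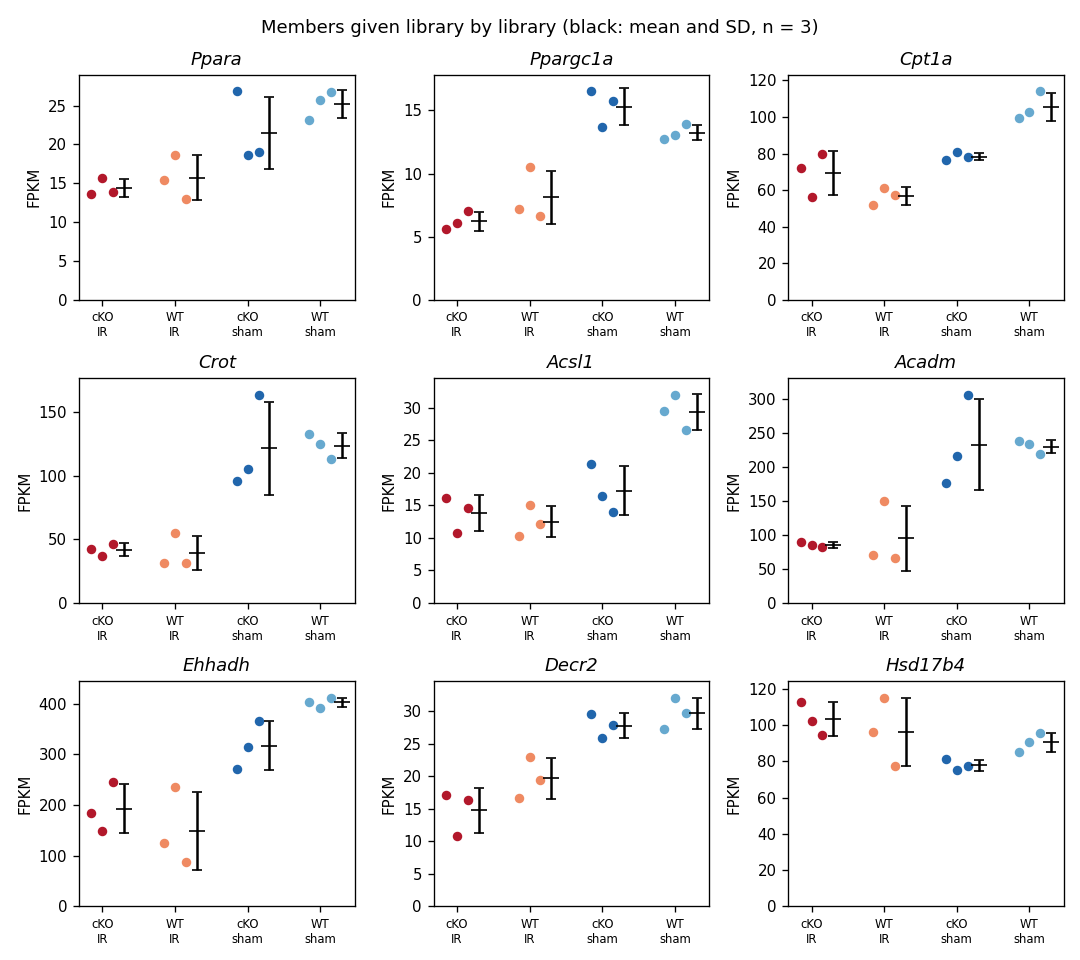
FPKM of 9 members in every library, from cKO IR on the left to WT sham on the right, with colored points for libraries and black marks for the mean and SD of 3. Crot, Acadm and Ppargc1a lie lower in both IR groups than in their sham groups, Acsl1 and Cpt1a are lower in cKO sham than in WT sham in every library, and Hsd17b4 is not lower after IR.

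Of the 4 mitochondrial acyl-CoA dehydrogenases, which open each cycle, 2 fell in both genotypes. Acadm, the medium-chain enzyme (chromosome 3, 153627994 to 153650269, minus strand), had 90.4, 84.8 and 82.3 FPKM in cKO IR kidneys, against 177, 216 and 307 FPKM in cKO sham kidneys. In WT IR kidneys Acadm had 70.0, 150 and 65.7 FPKM, against 238, 233 and 219 FPKM in WT sham kidneys. It lost more than any other mitochondrial member, −1.39 ± 0.28 in cKO (adjusted p = 0.00197) and −1.37 ± 0.28 in WT (adjusted p = 0.00309), without overlap in either genotype. The short-chain enzyme Acads also fell in both, at −0.44 in cKO (adjusted p = 0.0254) and −0.86 in WT (adjusted p = 0.00107). Its cKO call was lost without cKO IR library 2 or 3 or without cKO sham library 1 or 3 (adjusted p = 0.0676 to 0.0797). The long-chain enzyme Acadl and the very-long-chain enzyme Acadvl were not called in either genotype: Acadl was at 0.32 in cKO (adjusted p = 0.0599) and −0.05 in WT (adjusted p = 0.773), and Acadvl at 0.25 (adjusted p = 0.195) and −0.19 (adjusted p = 0.351). Without WT IR library 2, Acadvl was called lower in WT (−0.36, adjusted p = 0.0346), and no test compared these genes with each other. In cKO, Acadl was called higher where libraries were rescaled to a fixed sum or to plain read totals. It was also called higher in a fit on the cKO groups alone, as was Acadvl.

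In the later steps Hadha and Hadhb, the subunits of the trifunctional protein that takes long chains through the remaining steps, were at 0.04 and −0.20 in cKO and at −0.08 and −0.33 in WT kidneys, none called. Without WT IR library 2, Hadhb was called lower in WT (−0.48, adjusted p = 0.00521). Hadh, the matrix dehydrogenase for shorter 3-hydroxyacyl chains, fell in both genotypes (−0.71, adjusted p = 0.00974 in cKO; −0.81, adjusted p = 0.00618 in WT). Acaa2, the matrix thiolase, fell in WT (−0.98, adjusted p = 0.00405) and was at −0.49 in cKO kidneys (adjusted p = 0.0733). The electron transfer flavoprotein subunits Etfa and Etfb and their dehydrogenase Etfdh, which pass electrons from the dehydrogenases to ubiquinone, all fell in WT IR kidneys, at −0.84, −0.53 and −0.55. Of these Etfa passed in cKO IR kidneys, at −0.60 (adjusted p = 0.0126), and Etfb did so without cKO IR library 1 (−0.57, adjusted p = 0.0386). The Etfb call in WT held in just 1 of 6 fits that left out a library, the one without WT IR library 2, and the adjusted p reached 0.168 without WT IR library 3.

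Among the auxiliary enzymes for unsaturated chains, Eci1 and Decr1, mitochondrial isomerase and dienoyl-CoA reductase, were not called in either genotype, at 0.49 and 0.16 in cKO and 0.19 and −0.21 in WT kidneys. Decr1 was called lower in WT without WT IR library 2 (−0.42, adjusted p = 0.00448), and Eci1 higher in cKO without cKO IR library 3 (0.74, adjusted p = 0.0315). Decr2, the peroxisomal reductase (chromosome 17, 26300182 to 26309311, minus strand), had 17.1, 10.8 and 16.4 FPKM in cKO IR kidneys, against 29.6, 25.8 and 27.9 FPKM in cKO sham kidneys. In WT IR kidneys Decr2 had 16.6, 23.0 and 19.4 FPKM, against 27.2, 32.04 and 29.7 FPKM in WT sham kidneys. It fell in both, at −0.89 ± 0.16 in cKO (adjusted p = 0.00106) and −0.58 ± 0.16 in WT (adjusted p = 0.0155), though the WT call was lost without WT IR library 1 (adjusted p = 0.0651) or WT sham library 2 (adjusted p = 0.0556). Eci2 and Ech1, isomerases found in both organelles, fell in WT IR kidneys at −0.50 and −0.51 and were at −0.14 and 0.00 in cKO. Both WT calls were lost without WT IR library 1, WT IR library 3 or WT sham library 3, with adjusted p of 0.0599 to 0.0658 for Eci2 and 0.097 to 0.162 for Ech1, and Ech1 also without WT sham library 1 or 2 (0.0814 and 0.115).

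**Figure D3:**
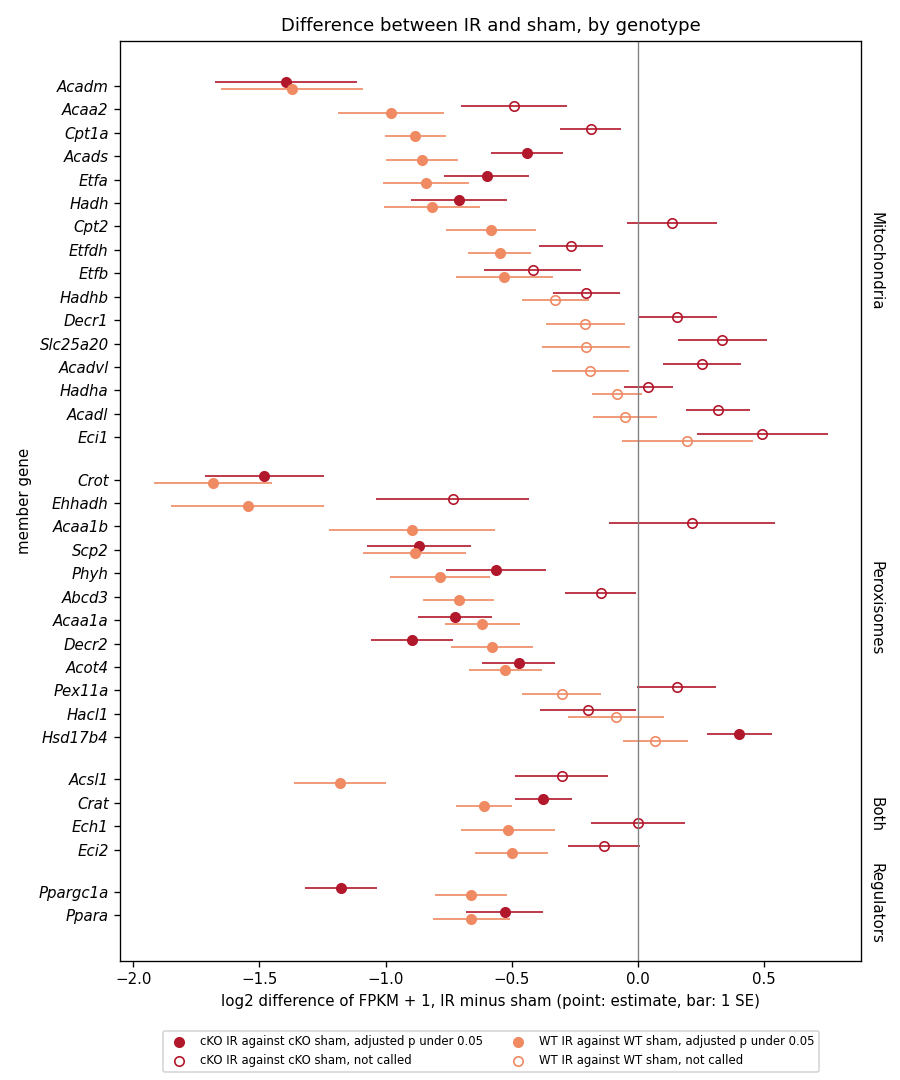
Log2 difference between IR and sham kidneys (x axis, with 1 SE) for each member, in cKO (dark red, upper of each pair) and WT mice (orange), with filled points where the adjusted p was under 0.05. Crot and Acadm lie far left in both genotypes, while Hsd17b4 is the only filled point right of 0, at 0.40 in cKO.

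In the core of the peroxisomal cycle 2 thiolase genes fell in both genotypes and the L-bifunctional enzyme in WT alone. Ehhadh, the L-bifunctional enzyme that acts on dicarboxylic and other acyl-CoAs (chromosome 16, 21580037 to 21606557, minus strand), had 184, 150 and 246 FPKM in cKO IR kidneys, against 270.3, 315 and 367 FPKM in cKO sham kidneys. WT IR kidneys had 125, 236 and 87.7 FPKM of Ehhadh, against 404, 393 and 412 FPKM in WT sham kidneys. In neither genotype did the groups overlap, but only the WT difference passed, at −1.55 ± 0.30 (adjusted p = 0.0024) beside −0.73 ± 0.30 in cKO (adjusted p = 0.0649), which was called without cKO IR library 3 (−0.92, adjusted p = 0.0412). The thiolases Acaa1a and Scp2 fell in both genotypes, Acaa1a at −0.73 in cKO and −0.62 in WT, and Scp2, whose product also serves sterol and branched-chain metabolism, at −0.87 in cKO and −0.89 in WT. Acaa1b, a near copy of Acaa1a whose reads may be shared with it, was at 0.21 in cKO (adjusted p = 0.609) and ranged from 57.2 to 175 FPKM over the WT IR libraries. Its WT call (−0.90, adjusted p = 0.0481) held in just 1 of 6 fits that left out a library, the one without WT IR library 2, and reached an adjusted p of 0.156 without WT IR library 3.

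Hsd17b4, the D-bifunctional enzyme for very long and branched chains, was the one member called higher in the main fit. It had 113, 103 and 94.7 FPKM in cKO IR kidneys, against 81.1, 75.1 and 77.6 FPKM in cKO sham kidneys. In WT IR kidneys Hsd17b4 had 96.1, 115 and 77.3 FPKM, against 85.3, 90.7 and 95.8 FPKM in WT sham kidneys. The cKO groups were apart, at 0.40 ± 0.13 (adjusted p = 0.0241), and the WT groups overlapped, at 0.07 ± 0.13 (adjusted p = 0.702). The call was lost without cKO IR library 1 or 2 (adjusted p = 0.0821 and 0.0542) or cKO sham library 2 or 3 (0.0724 and 0.0588). On the same strand it overlaps the pseudogene Cd63-ps, listed at 83.1 FPKM, so reads of the pair may not have been separated. The difference between the genotypes in its IR effect was 0.33 ± 0.18 (adjusted p = 0.44).

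Among the remaining peroxisomal members, Phyh, which starts alpha-oxidation of phytanic acid, fell, at −0.56 in cKO and −0.78 in WT kidneys, while Hacl1, the lyase of the same path, was near the filter in all groups, at 0.792 ± 0.279 FPKM in cKO IR, 1.06 ± 0.331 FPKM in WT IR, 1.06 ± 0.416 FPKM in cKO sham and 1.18 ± 0.289 FPKM in WT sham kidneys. The Phyh call in cKO held in just 1 of 6 fits that left out a library, the one without cKO IR library 1, and reached an adjusted p of 0.125 without cKO IR library 3. Hacl1 overlaps Btd on the opposite strand, which had 30.5 FPKM, and whether counting used strand is not given in the sources used here. Acot4, a thioesterase that cleaves succinyl-CoA and dicarboxylic CoA esters, fell, at −0.47 in cKO (adjusted p = 0.0184) and −0.53 in WT (adjusted p = 0.0137). Its calls were lost without cKO IR library 2 or cKO sham library 1 (0.0734 and 0.0721) and without WT IR library 3 (0.0538), and it has close relatives in the same gene cluster. Pex11a, which promotes peroxisome division, was not called, at 0.15 in cKO and −0.30 in WT kidneys, but was called higher in cKO without cKO IR library 2 (0.36, adjusted p = 0.0213).

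Set side by side, peroxisomal members had the lower median in both genotypes. In cKO IR kidneys 6 of 12 peroxisomal members fell and 1 rose, while 4 of 16 mitochondrial members fell, with medians of −0.52 and −0.20. Over all tested genes 23.1% fell and 27.8% rose there, so the mitochondrial count in cKO was near the share of all genes. In WT IR kidneys 9 of 12 peroxisomal and 9 of 16 mitochondrial members fell, beside 19.5% of all tested genes, with medians of −0.66 and −0.54. The peroxisomal median was thus lower than the mitochondrial one by 0.32 in cKO and 0.12 in WT. A second measure took the gap within each library, between the medians relative to WT sham. It averaged −0.16 ± 0.117 in cKO IR and 0.05 ± 0.0102 in cKO sham kidneys (SD, n = 3 each). In WT IR and WT sham kidneys it averaged −0.17 ± 0.0348 and 0.01 ± 0.0213, so the IR groups of the genotypes were close by this measure. No test was made on either measure. Counting the 4 genes of both organelles as peroxisomal brought the first gap from −0.32 to −0.14 in cKO and from −0.12 to −0.0741 in WT. Without WT IR library 2 the first gap was −0.0649 in WT. In summed FPKM, peroxisomal over mitochondrial members were 0.841, 0.834 and 0.909 in cKO IR kidneys, against 0.991, 0.985 and 0.959 in cKO sham kidneys. The ratios were 0.843, 0.898 and 0.741 in WT IR kidneys, against 1.007, 1.016 and 1.037 in WT sham kidneys. All 6 IR libraries were below all 6 sham libraries, and by this measure the shift was no smaller in WT, with mean ratios of 0.861 in cKO IR against 0.978 in cKO sham and 0.827 in WT IR against 1.02 in WT sham kidneys. Whether the gap differs between genotypes was not tested. Genes with high FPKM, led by Ehhadh among the peroxisomal members and by Acadl and Acadm among the mitochondrial ones, weigh most in these sums.

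**Figure D4:**
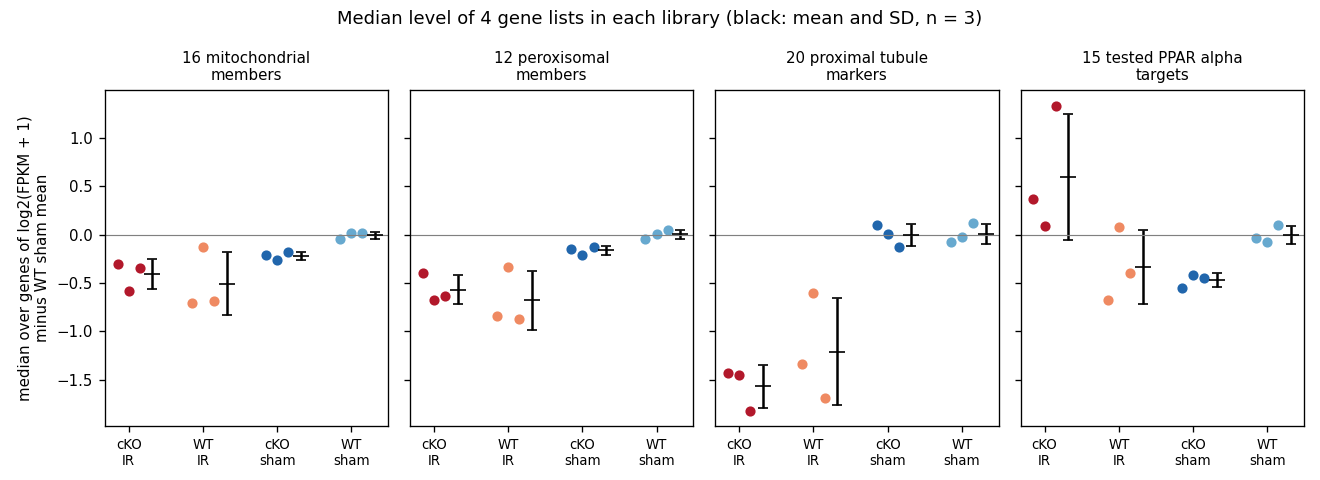
Median over genes of log2(FPKM + 1) minus the WT sham mean (y axis) in each library, for 4 gene lists, with mean and SD of 3 in black. Mitochondrial and peroxisomal members lie below 0 in the cKO IR, WT IR and cKO sham libraries, proximal tubule markers lie lowest in the IR groups, and the PPAR alpha targets lie above 0 in the cKO IR libraries, at 0.10 to 1.33.

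Without injury, no member differed between genotypes by the test. In cKO sham against WT sham kidneys 0 of the 34 were called higher and 0 lower, beside 0.847% and 0.256% of all tested genes, and 3 had an unadjusted p under 0.05 (1472 of all genes). The differences nonetheless leaned one way: 32 of 34 were below 0, with a median of −0.21 beside 0.00 over all genes, and all 16 mitochondrial members were below 0. In 21 of the 34 every cKO sham library was below every WT sham library, and in 0 every one was above, while over all tested genes the groups stood apart downward in 12% and upward in 13%. Those 21 included 11 mitochondrial and 7 peroxisomal members. Values over genes of the same 6 libraries are not independent of each other, so these counts are a description.

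Acsl1 had the smallest p-value and the largest difference among them. Its mean was 17.3 ± 3.75 FPKM in cKO sham and 29.4 ± 2.74 FPKM in WT sham kidneys, a log2 difference of −0.75 ± 0.18 (adjusted p = 0.0998). Acaa1b was at −0.54 with libraries spread widely. Cpt1a was next by p-value, at 78.3 ± 2.15 FPKM in cKO sham and 105 ± 7.62 FPKM in WT sham kidneys (−0.42 ± 0.12, adjusted p = 0.164), and it was called in a fit on these 6 libraries alone (adjusted p = 0.0402). Ppargc1a and Acot4 were the members above 0, at 0.19 and 0.02. The lean was smaller where each library was rescaled to a fixed sum (TPM), with 25 of 34 below 0 and a median of −0.11, a scaling that moved the median of all genes up by 0.09. Reads from the mitochondrial genome were 8.11 to 8.47% of all reads in cKO sham and 9.82 to 10.4% in WT sham kidneys, without overlap. The injury marker Spp1 was the one of 8 such genes called, higher in cKO sham at 706 FPKM against 335 FPKM in WT sham kidneys. The 5 red blood cell genes were at a median of −0.86, none called. None of 20 proximal tubule markers was called, and the part of these shifts in the lean of the members was not tested.

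**Figure D5:**
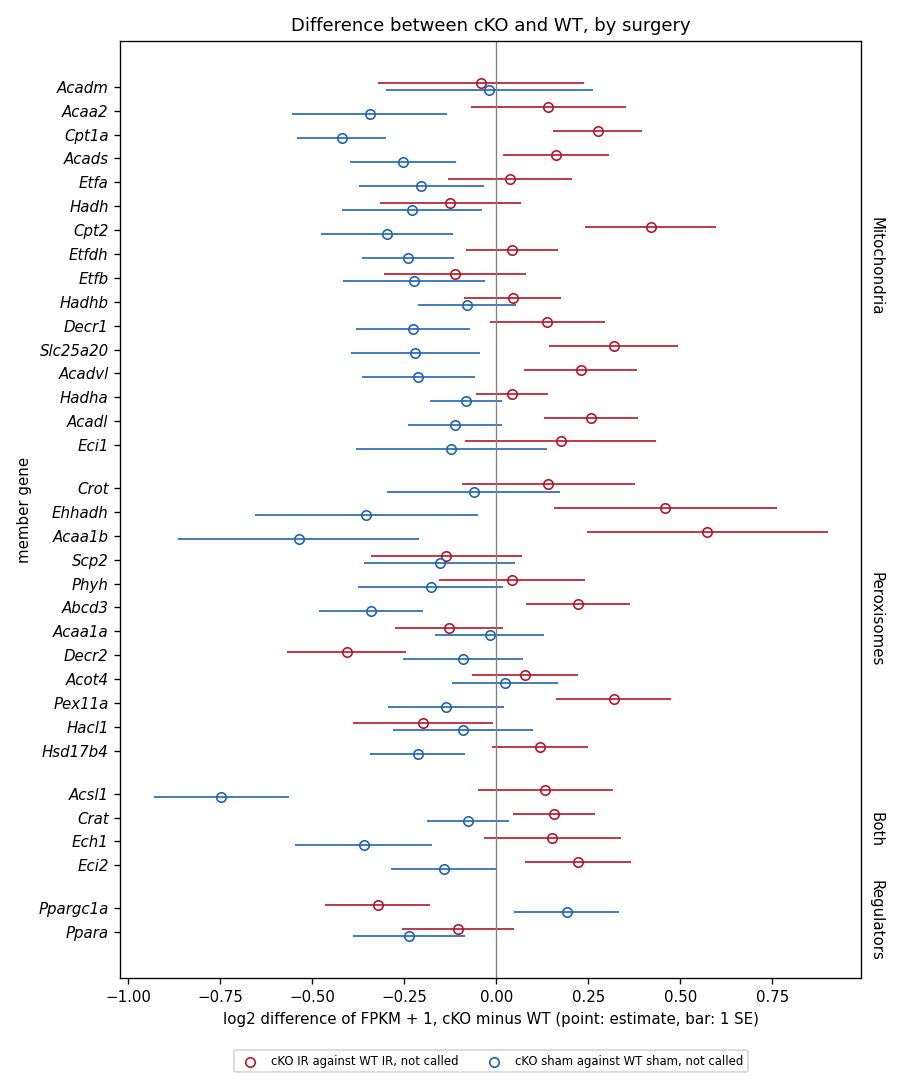
Log2 difference between cKO and WT (x axis, with 1 SE) for each member after IR (dark red, upper of each pair) and in sham kidneys (blue). No point was called. Blue points lie left of 0 for 32 of 34 genes, with Acsl1 farthest at −0.75, and red points lie right of 0 for 25 of 34.

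After injury no member differed between the genotypes by the test, which does not show that their levels were alike. In cKO IR against WT IR kidneys 0 members were called higher and 0 lower, beside 0% and 0% of all tested genes in limma. At an unadjusted p under 0.05 there were 4 members, Cpt1a and Cpt2 (higher) and Decr2 and Ppargc1a (lower), and 1926 of all genes, and voom weights on the recovered reads called 0 members and 1 gene. The smallest adjusted p of a member was 0.274, for Decr2, at 14.7 ± 3.46 FPKM in cKO IR and 19.7 ± 3.19 FPKM in WT IR kidneys. The median over members was 0.14, beside 0.03 for all genes, and turned to −0.02 without WT IR library 3 and rose to 0.32 without WT IR library 2. In every one of the 34 genes the groups overlapped. How often they overlapped over all tested genes was not counted in this comparison, so this overlap is not shown to be particular to the members.

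The IR effect itself was compared between genotypes as the difference of the cKO and WT differences. None of the 34 was called higher or lower in this interaction, beside 0.295% and 0.583% of all tested genes, and 6 members and 1878 genes had an unadjusted p under 0.05. A total of 29 of 34 estimates were above 0, meaning a smaller decline or larger gain in cKO, with a median of 0.29 beside 0.03 for all genes. The median was 0.13 with TPM scaling, with 12 of 34 below 0, 0.18 without WT IR library 3 and 0.47 without WT IR library 2. TPM scaling also moved the interaction median of all tested genes, from 0.03 to −0.12. Cpt1a came closest, at 0.70 ± 0.17 (adjusted p = 0.0908), and was called without cKO IR library 2 (0.84, adjusted p = 0.0233). Acsl1 was at 0.88 (adjusted p = 0.143), Cpt2 at 0.72 (adjusted p = 0.218), Abcd3 at 0.56 (adjusted p = 0.218) and Acaa1b at 1.11 (adjusted p = 0.304). The interaction shares the cKO sham libraries with the sham contrast, so the lower sham levels of Acsl1 and Cpt1a enter it directly, and the genes called in WT IR kidneys alone are not shown to respond differently.

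Other genes of the same pathways gave a context for the members. Their counts stand beside 23.1% of all tested genes falling and 27.8% rising in cKO IR, and 19.5% and 22.6% in WT IR kidneys. Of 19 tested genes of peroxisomal oxidation outside the set, 12 fell and 1 rose in cKO IR kidneys (median −0.65) and 15 fell in WT IR kidneys (median −0.86). Amacr, the racemase of branched acyl-CoAs, had a difference of −2.51 in cKO and −2.24 in WT, Pecr, a trans-2-enoyl-CoA reductase, −2.36 and −1.81, and the branched-chain oxidase Acox3 −1.86 and −1.50. Of 12 tested mitochondrial oxidation genes outside the set, 8 fell and 1 rose in cKO and 9 fell in WT kidneys, with the CoA carrier Slc25a42 at −1.18 and −1.34 and the thioesterase Acot2 rising in cKO at 1.26. Among 18 other peroxisomal enzymes 10 fell in cKO and 9 in WT kidneys, among them the membrane channel Pxmp2 at −1.77 and −1.63. Peroxins, which build peroxisomes and import their proteins, fell in 9 of 15 in cKO and 8 of 15 in WT kidneys by smaller amounts, with medians of −0.30 and −0.32. The WT count of peroxins was 3 with TPM scaling, 4 with plain read totals, 4 without WT IR library 3 or WT sham library 3, and 5 without WT sham library 2. Pex3, a membrane assembly factor, was at −0.59 in cKO and −0.37 in WT kidneys, where the call was lost with TPM scaling.

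Genes of fatty acid uptake and activation and other regulators mostly fell with the members. For comparison, 23.1% of all tested genes fell and 27.8% rose in cKO IR, and 19.5% fell and 22.6% rose in WT IR kidneys. Of 15 tested uptake and activation genes 9 fell and 3 rose in cKO and 9 fell and 2 rose in WT kidneys, with the medium-chain acyl-CoA synthetases Acsm3 at −2.36 and −2.67 and Acsm5 at −2.25 and −1.86. Of 21 other regulators 14 fell and 1 rose in cKO and 12 fell and 1 rose in WT kidneys, where 7 fell with TPM scaling or without WT IR library 3. The largest falls in cKO were those of Klf15, a factor known in lipid and amino acid use, at −1.83 in cKO and −1.01 in WT, and of Lpin1, a coactivator and phosphatidate phosphatase, at −1.77 and −1.11. Esrrb, an orphan nuclear receptor, fell most in WT, at −1.37 in cKO and −1.30 in WT, and Sirt3, the mitochondrial deacetylase, was at −1.31 and −1.12. Ketone genes were divided. The ketone-using enzymes Bdh1, Oxct1 and Acat1 fell in both genotypes, at −2.08, −1.54 and −1.13 in cKO and −1.99, −1.46 and −1.36 in WT kidneys, while Slc16a6, a ketone body exporter known from zebrafish liver, rose by 2.13 in cKO and 0.91 in WT.

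Of 15 tested genes known as PPAR alpha targets 9 rose and 1 fell in cKO IR kidneys (median 1.19) and 2 rose and 4 fell in WT IR kidneys (median −0.08). Beside them, 27.8% of all tested genes rose and 23.1% fell in cKO IR kidneys. In WT IR kidneys 22.6% rose and 19.5% fell, so the WT counts of the targets were near these shares. The median of these targets relative to WT sham was 0.37, 0.10 and 1.33 in cKO IR libraries 1, 2 and 3, against −0.55, −0.41 and −0.44 in cKO sham libraries, so cKO IR library 3 stood highest. It was −0.68, 0.08 and −0.39 in WT IR libraries, against −0.03, −0.08 and 0.10 in WT sham libraries. Without it 6 of the 15 rose, and without cKO sham library 3 also 6. The WT median turned to 0.12 with TPM scaling, 0.07 with plain read totals and 0.03 without WT IR library 1, where 2 fell. These scalings also moved the median of all tested genes in WT IR kidneys, from 0.01 to 0.20 with TPM and to 0.13 with plain totals. With either scaling the median of the targets thus stayed below that of all genes. Plin2, the coat protein of lipid droplets, averaged 328 ± 130 FPKM in cKO IR against 28.6 ± 1.86 FPKM in cKO sham kidneys (3.38 ± 0.28, adjusted p = 1.1e-05). In wild-type mice Plin2 averaged 104 ± 23.4 FPKM in WT IR against 27.5 ± 1.37 FPKM in WT sham kidneys (1.86 ± 0.28, adjusted p = 0.000566). Pdk4, which blocks pyruvate dehydrogenase, rose in cKO at 36.4 ± 14.7 FPKM in cKO IR against 3.64 ± 0.523 FPKM in cKO sham kidneys (2.95 ± 0.33, adjusted p = 5.4e-05). It fell in WT at 9.22 ± 5.28 FPKM in WT IR against 20.6 ± 3.27 FPKM in WT sham kidneys (−1.18 ± 0.33, adjusted p = 0.0145), a call lost without WT IR library 1 or WT sham library 1. In cKO IR kidneys 9 of the 15 targets thus rose, beside 1 of the 34 members, and the difference between the lists was not tested. In cKO IR against WT IR kidneys 0 of the 15 were called (median 0.54). In the interaction 1 was called, Pdk4 (median 1.19). In cKO sham against WT sham kidneys 1 was called lower, also Pdk4 (median −0.44). For the other targets a response that differs between genotypes was therefore not shown.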

How the data were processed

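Kidney RNA of 12 libraries was described in 1 deposited table. Per the submitters' processing notes the tools included HISAT2 2.2.1, and the builds listed there are mm8 and mm9. The counting program and the annotation: not given in the sources used here. The deposited values are FPKM. Multiplied by gene length they were whole multiples of 1 step per library (largest distance from a whole number 1.34e-09), which gave the reads, and 3 reads on a gene of 1 kb amount to 0.176 to 0.226 FPKM. This limit covers counting error only. The library size the authors divided by was 0.933 to 1.126 times the read sum. Of the 34 members 1 has the same start and end in GENCODE M21, so coordinates are as deposited.

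Groups came from the sample titles. log2(FPKM + 1) was fitted in limma 3.58.1 (R 4.3.3) with 1 mean per group and a trend in the variance (8 residual and 2.59 prior degrees of freedom), two-sided, in 5 comparisons. The fit was tested on simulated data. The pseudocount of 1 understates the change of low genes. Values of every library are printed for members called in a genotype contrast, for the 4 called members with the largest difference in each direction in either IR comparison, and for Ppara, Ppargc1a and Cpt1a. Called genes with the 3 largest differences may be named from each other list. Members, lists and rules were chosen with earlier results of these data known. Spp1, Krt20 and Cfd, and members noted for their p-value or for a call lost without a library, were singled out after their values were seen. Protein sequences were not used here. Alternatives were another pseudocount, no filter, 4 other scalings or weightings, a replicate block, fits on 2 groups and fits without 1 library. Some genes of the other lists are not reported here.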

Additional observations from a re-analysis of the deposited data

Results flagged for a closer look

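Of the genes named above, 2 had effects of IR that differed between genotypes by the interaction test in limma, and neither is one of the 34 members. For Pdk4 the cKO effect exceeded the WT effect by 4.13 on the log2 scale (adjusted p = 0.00336), with a rise in cKO IR and a fall in WT IR kidneys. Its level was also lower in cKO sham than in WT sham kidneys, at −2.21 (adjusted p = 0.00883), a call lost without WT sham library 2 or cKO sham library 2. The Pdk4 interaction was called in 19 of 19 alternatives. For Slc16a6 the difference of effects was 1.22 (adjusted p = 0.0209), with means of 12.5 ± 2.88 FPKM in cKO IR, 7.62 ± 0.435 FPKM in WT IR, 2.05 ± 0.0269 FPKM in cKO sham and 3.61 ± 0.681 FPKM in WT sham kidneys (SD, n = 3 each). It rose in both genotypes, and the interaction was called in 14 of 19 alternatives. The call was lost with no filter on level, without WT sham library 2 and without any 1 of the cKO sham libraries.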

How the results depend on the processing

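Of 532 alternative values for 38 called member results, 469 kept the call, 63 lost it and none turned sign. In these, 25 results kept the call throughout. For named genes outside the set 887 of 906 values kept it. Members called higher numbered 1 (Hsd17b4) in WT IR kidneys with TPM scaling. In cKO IR kidneys they numbered 2 with TPM, 2 with plain read totals (chosen after seeing the data, as was voom), 3 in the fit on the 2 groups, and 0 to 2 with 1 library left out. The fit on the 2 groups called 1 member lower in cKO sham kidneys. With 1 library left out the interaction called 0 to 1. The peroxisomal minus mitochondrial gap in cKO IR against cKO sham was −0.41 to −0.21 with 1 library left out, and −0.14 with genes of both organelles counted as peroxisomal. In cKO IR against WT IR it was −0.0682 to 0.0212 with 1 library left out. In the interaction it was −0.19 to −0.0687 with 1 left out, and −0.0468 with genes of both counted as peroxisomal. The cause of these shifts was not tested. TPM moved the median of all genes by 0.20 in WT IR kidneys and plain totals by 0.13, and 19 and 20 members then fell. Among all tested genes, TPM gave 4534 higher and 1621 lower calls in WT IR kidneys and plain totals 4160 and 1845, in place of 2910 and 2514, and in the interaction TPM gave 25 and 164 in place of 38 and 75. Deviations from the group means correlated at r = −0.19 to 0.40 between libraries of the same replicate number, highest for WT IR 3 with cKO IR 3. Libraries of different numbers were not compared, so whether the numbers pair the libraries was not settled. A replicate block called 2 members higher and 13 lower in cKO IR and 22 lower in WT IR kidneys. Peroxins lower in WT IR kidneys numbered 4 in the fit on the 2 groups and 5 with no filter, in place of 8. Tests with edgeR and DESeq2 were planned but not run, since the values are FPKM.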
